A study of Mus musculus with 20 samples.

Results

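The genes described here are 38 phase I enzymes measured in AML-12, a mouse hepatocyte cell line. They are the protein-coding genes that the authors' 4 comparison tables list under the names of cytochromes P450 of the drug, sterol and orphan families, P450 reductase, flavin monooxygenases, alcohol and aldehyde dehydrogenases, aldo-keto reductases, short-chain reductases of the Dhrs series, quinone reductase, epoxide hydrolases and carboxylesterases. Aldh1a1, Aldh1a7, Aldh1l2 and Aldh18a1 match by name and were left out. The 4 tables list 6261 genes, and 160 protein-coding mouse genes of GENCODE vM21 fit the name rule. The aldehyde dehydrogenases were covered best, with 9 of 17 annotated genes listed, while 8 of 73 P450s and 2 of 19 carboxylesterases were listed. None of the 4 annotated Cbr carbonyl reductases was listed. A gene is in a table only if it passed the authors' test, so the genes of these families that are not listed were not analysed here.

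Wild-type (WT) cells and Ripk3-/- cells, which lack the necroptosis kinase Ripk3, were compared by RNA-seq, each either untreated or kept for 24 h with 125 µM palmitate, the common saturated fatty acid, on an albumin (BSA) carrier. There were 5 libraries in each of the 4 groups, 20 in all, of 21.2 to 30.1 M reads. No group is described as given albumin alone, so palmitate and its carrier cannot be told apart, and the labels give neither separate cultures nor the number of knockout clones. The p-values therefore rest on a spread among libraries that could be technical only, and genotype and clone cannot be told apart.

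Phase I enzymes put a polar group on fat-soluble molecules or unmask one. P450s and flavin monooxygenases add oxygen, dehydrogenases and reductases interconvert alcohols, aldehydes, ketones and acids, and hydrolases open epoxides and esters. The same families handle drugs and the cell's own retinoids, steroids, bile acids and lipid aldehydes. In liver many of them are induced through the aryl hydrocarbon receptor AHR or the pregnane X receptor encoded by Nr1i2. Another inducer is NRF2, a transcription factor active under oxidant stress.

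The RefSeq promoters of 4 P450 genes are shown first, because the 2 pairs they form hold the 4 largest called palmitate changes in wild-type cells: Cyp1a1 and Cyp1b1, the classical AHR targets, were higher with palmitate in wild-type cells, and Cyp2c67 and Cyp2c68, neighbours on chromosome 19, were lower. Each is the 250 bases before the RefSeq start on GRCm38.p6, written 5′ to 3′ along the gene, with the 5-base AHR core GCGTG, or its reverse complement CACGC, in capitals. The windows are chr9:57697363-57697612 on the plus strand for Cyp1a1 and, on the minus strand, chr17:79715062-79715311 for Cyp1b1, chr19:39649043-39649292 for Cyp2c67 and chr19:39741102-39741351 for Cyp2c68.
Cyp1a1: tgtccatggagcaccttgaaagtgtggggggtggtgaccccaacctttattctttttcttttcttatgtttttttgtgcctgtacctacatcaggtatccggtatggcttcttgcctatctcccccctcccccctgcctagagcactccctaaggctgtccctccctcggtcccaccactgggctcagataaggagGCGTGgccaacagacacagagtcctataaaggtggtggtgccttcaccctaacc
Cyp1b1: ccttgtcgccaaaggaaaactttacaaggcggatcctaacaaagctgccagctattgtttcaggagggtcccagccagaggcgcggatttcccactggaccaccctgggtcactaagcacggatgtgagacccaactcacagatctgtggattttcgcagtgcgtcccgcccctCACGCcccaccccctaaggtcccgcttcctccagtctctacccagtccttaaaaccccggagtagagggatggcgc
Cyp2c67: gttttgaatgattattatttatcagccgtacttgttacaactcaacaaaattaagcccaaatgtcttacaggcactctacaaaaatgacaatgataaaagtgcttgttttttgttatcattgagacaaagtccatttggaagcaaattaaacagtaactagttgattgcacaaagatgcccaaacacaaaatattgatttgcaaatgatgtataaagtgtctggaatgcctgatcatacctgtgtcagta
Cyp2c68: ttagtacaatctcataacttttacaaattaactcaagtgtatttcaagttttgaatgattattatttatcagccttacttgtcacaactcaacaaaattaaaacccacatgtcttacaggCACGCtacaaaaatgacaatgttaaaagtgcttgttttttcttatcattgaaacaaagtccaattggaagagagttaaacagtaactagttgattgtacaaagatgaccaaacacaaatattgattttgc
The core lies 54 to 50 bases before the start of Cyp1a1, 76 to 72 before that of Cyp1b1 and 130 to 126 before that of Cyp2c68, and these letters are not in the Cyp2c67 window. Such a short motif is common: 28.2% of 27025 mouse promoters of this length hold it on either strand, and 11 of the 34 members with a RefSeq promoter do. Binding of AHR to the letters in capitals was not tested, and bases further upstream were not searched. The capitals therefore mark a match of letters only. The core of the antioxidant response element, TGACNNNGC, is in 10.1% of promoters and in 1 of the 34, Aldh9a1. An exact match to the DR1 element, a direct repeat bound by PPAR alpha and HNF4A, is in 0.037% of promoters and in 0 of the 34. So rare a match would seldom be met among 34 genes, and nothing is read from its absence. The Cyp2c67 and Cyp2c68 windows are 63.1% identical when aligned end to end. Without penalty for overhanging ends, an alignment added after that value was seen, they are 91.7% identical over 204 bases. Their transcripts are 96.6% identical, and 52.8% of the 50-base windows of Cyp2c67 and 43.3% of those of Cyp2c68 also occur in another mouse gene, mostly Cyp2c40, so reads could be split among copies and the counts of both genes are uncertain.

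Levels below are normalised read counts, meaning reads divided by 1 size factor per library, and FPKM where genes are compared, since FPKM also divides by gene length. Log2 fold changes are from edgeR's quasi-likelihood test with SE, and a gene is called at an adjusted p under 0.05 over all genes the authors tested. Groups are called separate when every library of one lies above every library of the other, with the size factors of that comparison's table. Printed levels use 1 joint factor per library, and on that scale Akr1b7 for palmitate in wild-type cells and Aldh4a1 for genotype in untreated cells overlap by less than 1 normalised count, so 13 rather than 14 and 21 rather than 22 members are separate there. Over the 2993 genes with counts in all libraries, untreated knockout replicate 1 stood apart from its group: the chi-square of counts over its degrees of freedom was 34.5 to 47.4 in its 4 pairs and 2.61 to 16.1 in the other 36 within-group pairs. Without it, the members called were 22 against 22 for genotype in untreated cells, 9 against 8 for palmitate in knockout cells, and 0 against 0 for the difference between the palmitate effects. Ripk3 itself was lower in the knockout libraries, by a log2 fold change of -1.90 (SE 0.39) untreated and -1.79 (SE 0.32) with palmitate. Of the hepatocyte markers, Ttr reached 371 to 481 FPKM while Alb stood at 3.16 to 6.10. The cholangiocyte markers Spp1, at 629 to 928 FPKM, Krt19, at 116 to 173, and Sox9, at 52.7 to 65.2, all stood above Alb in a line labelled as hepatocytes. Of the mesenchymal and stellate list, 2 of 8 genes were listed for genotype. Vim, at 166.5 to 191 FPKM, also stood above Alb, and Des reached at most 0.244. Of the macrophage list, 1 of 5 genes was listed (Cd68, at most 1.89 FPKM), and of the endothelial list 0 of 4. Alb rose with palmitate (log2 fold change 0.80 and 0.78 in wild-type and knockout cells), as did Spp1 and Cd68, while in wild-type cells Ttr fell by 0.21 and Krt19 by 0.15. Of 10 hepatocyte markers, 0 were called higher and 1 lower in untreated knockout cells and 3 higher and 1 lower with palmitate. Of 6 cholangiocyte markers, 2 were higher and 1 lower untreated and 3 higher and 1 lower with palmitate: Krt19 was higher (0.41 and 0.48) and Sox9 lower (-0.23 and -0.18). Of 8 mesenchymal and stellate markers, 1 was higher and 0 lower untreated and 2 higher and 0 lower with palmitate. Des was higher in both treatments (0.84 and 1.07) and Vim with palmitate (0.11). The part of these marker shifts in the enzyme results was not tested, and in bulk RNA fewer cells of a type and less RNA per cell cannot be told apart.

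Per length, the most abundant members in untreated wild-type cells were Ephx1, the microsomal epoxide hydrolase, at 92.7 FPKM, Aldh2, the mitochondrial enzyme that oxidises acetaldehyde, at 72.3, and the aldo-keto reductase Akr1c12 at 70.5. They were followed by Aldh9a1, which makes the carnitine precursor trimethylaminobutyrate, at 52.1 FPKM. For Akr1c12, 28.6% of the 50-base windows also occur in Akr1c13, so its counts are uncertain. Of the 32 members with values in untreated wild-type cells, 13 had at least 20 FPKM, 14 had 1 to 20 and 5 had less than 1. The classical inducible genes were among the lowest: Cyp1a1 stood at 0.295 FPKM and Cyp1b1 at 0.170, against 30.7 for Cyp2c68 and 13.4 for Cyp3a13.

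**Figure D1:**
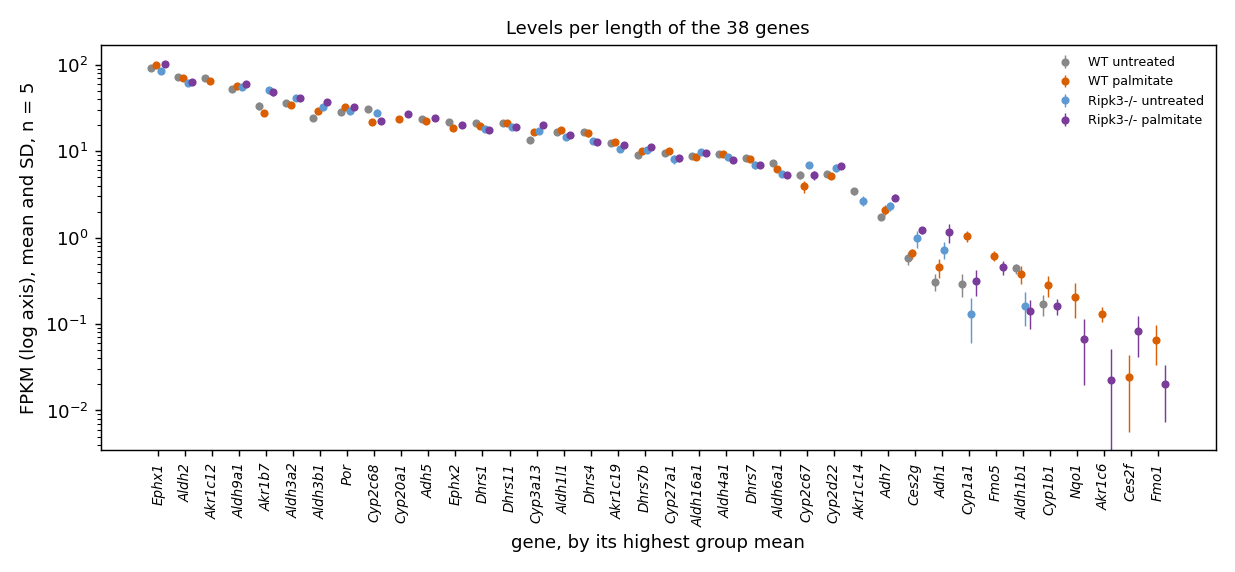
Level per length (FPKM on a log axis, mean and SD of 5 libraries) of the 38 genes in the 4 groups, ordered by the highest group mean. A group is drawn only where a table that lists the gene gives it; levels run from about 100 FPKM for Ephx1 to under 0.1 for Fmo1, and the widest gaps between groups are among the genes under about 1 FPKM.

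Palmitate in wild-type cells changed 16 of the 18 members listed for that comparison, 9 higher and 7 lower, and 1 change, that of Cyp1a1, was at least 2-fold. Of all genes tested, 14.6% were called in this comparison, 8.4% higher and 6.25% lower, and a member had to be listed in some table, so nothing is read from its share. The groups were separate for 14 of the 18 members, beside 70.1% of all genes listed there. The median log2 fold change of the listed members was 0.11, beside 0.12 for all listed genes. With size factors recomputed from the listed genes alone the split was 4 higher and 8 lower by the DESeq2 method and 5 higher and 8 lower by TMM. Those scalings centre the listed genes. By the DESeq2 method the rises of Aldh9a1, Ephx1 and Dhrs7b, given below, shrank to log2 fold changes of 0.05, 0.05 and 0.10. These were among the calls lost.

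Cyp1a1 (chromosome 9, 57687928 to 57703824), which oxidises aromatic hydrocarbons, had normalised counts of 15.3, 30.3, 18.2, 16 and 22.7 in the untreated wild-type libraries and 74.9, 82.1, 79.2, 57.3 and 66.9 with palmitate. All treated libraries lay above all untreated ones, a 3.5-fold rise (log2 fold change 1.81, SE 0.18, adjusted p = 1.92e-06 by edgeR). Cyp1b1, its relative better known outside the liver, rose from 21.7 ± 5.98 to 36.4 ± 9.67 (SD, n = 5; log2 fold change 0.77, SE 0.23, adjusted p = 0.0294 by edgeR), with overlapping groups. The Cyp1b1 call was lost when any 1 of 7 of the 10 libraries was left out (wild-type untreated replicates 1, 3 and 4 and palmitate replicates 1 to 4), at adjusted p = 0.0554 to 0.0941. Of 5 genes of the AHR pathway outside phase I, Ahr among them, 0 were listed for palmitate in either genotype.

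The 2 members of the Cyp2c family, whose mouse enzymes are known for oxidising arachidonic and other fatty acids, fell. Cyp2c68 was at 1310, 1357, 1400, 1239 and 1293 normalised counts in untreated wild-type libraries and at 972, 929, 900, 915 and 1002 with palmitate. The groups did not overlap (log2 fold change -0.49, SE 0.04, adjusted p = 2.74e-07 by edgeR). Cyp2c67 was at 264, 209, 222, 216 and 240 untreated and at 132, 157, 200, 181 and 179 with palmitate, again with no overlap (log2 fold change -0.44, SE 0.10, adjusted p = 0.00780 by edgeR). Cyp3a13, of the Cyp3a family that oxidises drugs and steroids, moved the other way, from 989, 1027, 950, 952 and 1016 to 1267, 1290, 1270, 1155 and 1223 (log2 fold change 0.33, SE 0.04, adjusted p = 1.35e-05 by edgeR). Its groups were separate too. Por, the reductase that passes electrons to all microsomal P450s, rose from 2868 ± 92.4 to 3231 ± 38.3 (SD, n = 5; log2 fold change 0.17, SE 0.03, adjusted p = 0.000317 by edgeR). Among 8 other electron donors of P450s, 1 was called, Cyb5b (0.13, SE 0.03).

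Among the aldehyde and alcohol enzymes, Aldh3b1, which oxidises aldehydes from lipid peroxidation, had 1151, 1076, 1142, 1208 and 1072 normalised counts untreated and 1431, 1348, 1363, 1300 and 1350 with palmitate. All treated libraries were higher (log2 fold change 0.27, SE 0.04, adjusted p = 0.000151 by edgeR). Aldh9a1 went from 4334, 4420, 4527, 4289 and 4454 to 4607, 4811, 4856, 4721 and 4933, a small but separate rise (log2 fold change 0.12, SE 0.03, adjusted p = 0.00442 by edgeR). Aldh6a1, the methylmalonate semialdehyde dehydrogenase of valine breakdown, fell (log2 fold change -0.23, SE 0.05, adjusted p = 0.00193 by edgeR). Aldh1l1, the folate enzyme that oxidises formyltetrahydrofolate, had a log2 fold change of 0.10 and was not called (edgeR adjusted p = 0.0514). Adh7, an epithelial dehydrogenase of retinol and ethanol, was called higher (0.30, SE 0.09, adjusted p = 0.0450 by edgeR), but the call was lost on leaving out any 1 library except wild-type palmitate replicate 5 (adjusted p = 0.0519 to 0.162). Adh5, which oxidises the glutathione adduct of formaldehyde, was called lower by only 0.09 on the log2 scale (edgeR adjusted p = 0.0390). That call was lost without any 1 of 7 libraries, wild-type untreated replicates 2, 3 and 4 and palmitate replicates 2 to 5 (adjusted p = 0.0536 to 0.104).

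Akr1b7, an aldose reductase relative that reduces lipid aldehydes, fell from 1201, 1083, 1123, 927 and 1033 normalised counts to 904, 888, 927, 871 and 879 (log2 fold change -0.26, SE 0.06, adjusted p = 0.00290 by edgeR). The highest treated and the lowest untreated library both stood at 927, so the groups met but hardly overlapped. Akr1c12 had a log2 fold change of -0.10 and was not called (edgeR adjusted p = 0.0513). The epoxide hydrolases went in opposite directions. Ephx1 rose by 0.12 (SE 0.03, adjusted p = 0.00630 by edgeR), and Ephx2, the soluble enzyme that opens fatty acid epoxides, fell from 1361 ± 88.2 to 1141 ± 49.6 (SD, n = 5; log2 fold change -0.25, SE 0.05, adjusted p = 0.000897 by edgeR). Of the short-chain reductases, Dhrs7b, a peroxisomal enzyme of ether lipid synthesis, rose (0.16, SE 0.04, adjusted p = 0.0102 by edgeR) and Dhrs1 fell (-0.13, SE 0.04, adjusted p = 0.0176 by edgeR). The Dhrs1 call was lost without wild-type untreated replicate 1 (adjusted p = 0.0522) or palmitate replicate 4 (0.0546).

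**Figure D2:**
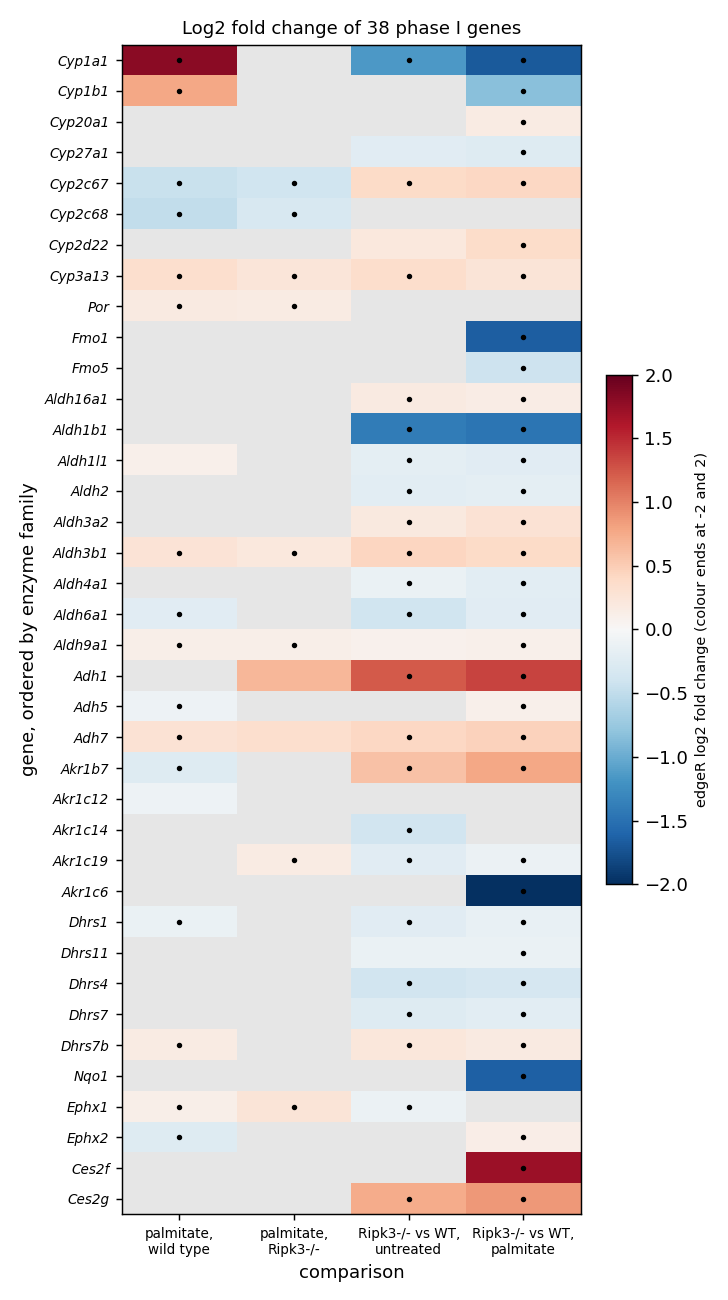
Log2 fold change (edgeR) of the 38 genes, by enzyme family, in the 4 comparisons; a dot marks an adjusted p under 0.05 and grey a gene not listed by the authors for that comparison. Palmitate columns hold 18 and 10 listed members and genotype columns 26 and 33, and the colours of a gene mostly match between the 2 genotype columns.

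In Ripk3-/- cells palmitate changed 8 of 10 listed members, 6 higher and 2 lower, none by 2-fold. Of all genes tested, 7.56% were called, 4.41% higher and 3.15% lower. The groups were separate for 7 of the 10, beside 66.1% of all listed genes, and the median log2 fold change was 0.19, beside 0.16 for all listed genes. When DESeq2 size factors were taken from the listed genes, 3 were called, 1 higher and 2 lower. The log2 fold changes of Akr1c19, Aldh3b1, Aldh9a1, Cyp3a13 and Por were then 0.08, 0.13, 0.04, 0.15 and 0.08, and their calls were lost.

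The 2 Cyp2c genes were the ones that fell. Cyp2c68 was at 1254, 1300, 1134, 1059 and 1274 normalised counts in untreated knockout libraries and at 936, 933, 926, 1021 and 1005 with palmitate (log2 fold change -0.32, SE 0.06, adjusted p = 0.00304 by edgeR). Cyp2c67 was at 294, 303, 298, 272 and 336 untreated and at 228, 261, 186, 224 and 239 treated (log2 fold change -0.40, SE 0.10, adjusted p = 0.0203 by edgeR). Both were separate between groups, but the Cyp2c67 call was lost without untreated knockout replicate 5 or palmitate knockout replicate 3 or 4 (adjusted p = 0.0517 to 0.0595).

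The strongest test result was that of Ephx1, which was at 4301, 4103, 4208, 3947 and 4152 in untreated knockout libraries and at 4821, 5085, 5109, 4800 and 4983 with palmitate (log2 fold change 0.26, SE 0.03, adjusted p = 8.02e-05 by edgeR). Every treated library was above every untreated one. Cyp3a13 rose from 1328, 1250, 1183, 1173 and 1331 to 1520, 1490, 1366, 1497 and 1526 (0.24, SE 0.05, adjusted p = 0.00579 by edgeR). Aldh3b1 rose from 1597, 1467, 1371, 1526 and 1625 to 1763, 1827, 1733, 1759 and 1728 (0.22, SE 0.05, adjusted p = 0.00808 by edgeR). Both were separate. Aldh9a1 rose from 4771, 4619, 4699, 4541 and 4872 to 5120, 5133, 5112, 5083 and 5139 (0.12, SE 0.03, adjusted p = 0.00824 by edgeR). Akr1c19, a mouse aldo-keto reductase next to Akr1c12, rose from 1536, 1464, 1608, 1619 and 1567 to 1768, 1795, 1734, 1753 and 1692 (0.17, SE 0.04, adjusted p = 0.0117 by edgeR). Por rose by 0.16 (edgeR adjusted p = 0.0109), and its groups touched. Adh1 and Adh7 were listed by the authors but not called here (0.67, edgeR adjusted p = 0.0560, and 0.34, edgeR adjusted p = 0.0573). Adh1 was called without untreated knockout replicate 1 (0.80, adjusted p = 0.0347) or palmitate knockout replicate 2 (0.77, adjusted p = 0.0363).

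Whether palmitate acted differently by genotype was tested as an interaction over all 20 libraries, for the 27 members with counts in all of them. Only genes listed in both genotype comparisons or in both palmitate comparisons have such counts, so the genes tested were selected for effects that recur. Cyp1b1, Ephx2 and Adh5, listed for palmitate in wild-type cells and for genotype with palmitate, lack untreated knockout counts and could not enter. A lack of calls therefore does not show like responses of these enzymes. None of the 27 was called by edgeR, DESeq2 or limma, and 5 had an unadjusted p under 0.05 with each tool. Of all 2993 genes, 0% were called by edgeR (172 unadjusted), and DESeq2 and limma called 6 and 0. The 95% interval of the difference lay within ±0.25 on the log2 scale for 16 of the 27 members and within ±0.5 for 23. Ephx1 had the lowest p: its rise was larger in knockout cells by 0.14 (95% interval 0.06 to 0.22, edgeR adjusted p = 0.519). Cyp1a1 was not listed for palmitate in knockout cells, where its counts were 14.3, 13.6, 8.02, 5.59 and 3.49 untreated and 18.8, 27.9, 21.7, 11.8 and 30.7 with palmitate. The fit over all libraries nevertheless put its change there at 1.27 (SE 0.32), and the difference from wild-type cells was -0.54 with an interval of -1.35 to 0.27, so neither equal nor clearly unequal responses can be read from it. Without untreated knockout replicate 1 the difference was -0.30.

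**Figure D3:**
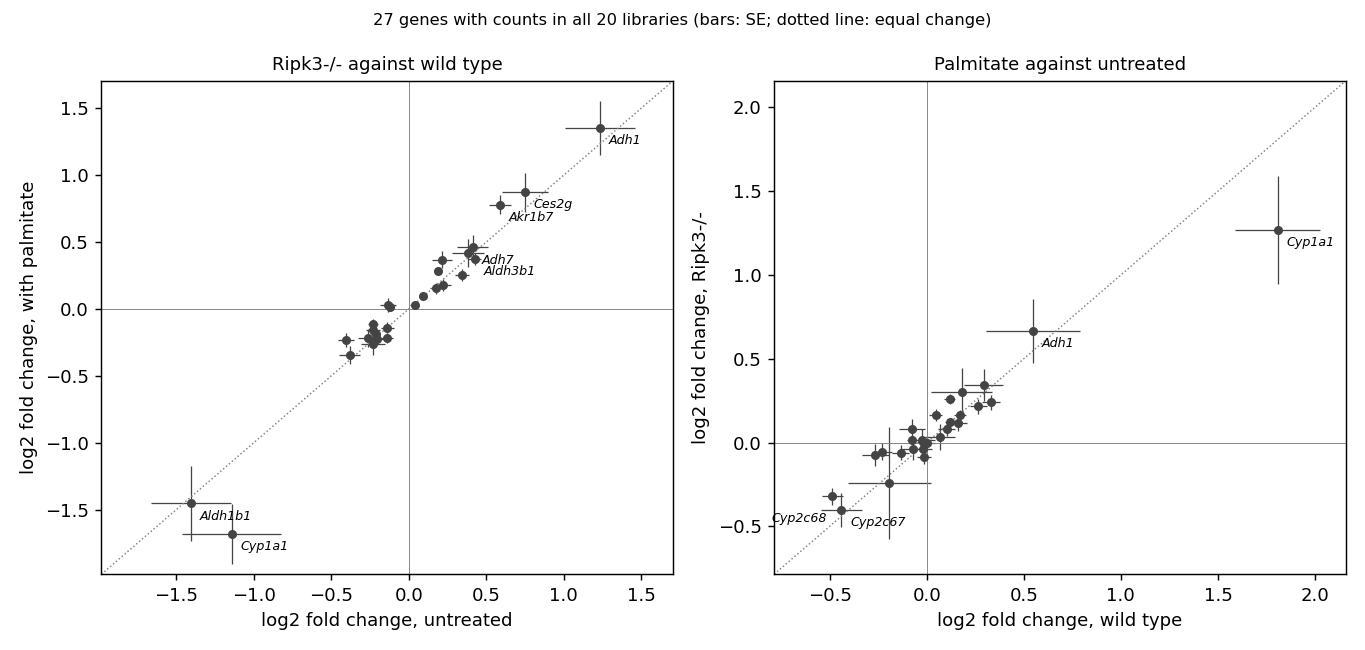
Log2 fold changes with SE of the 27 genes that have counts in all 20 libraries, for genotype without against with palmitate (left) and for palmitate in wild-type against Ripk3-/- cells (right); the 2 axes of a panel share no library. Adh1, Ces2g and Akr1b7 sit high and Aldh1b1 and Cyp1a1 low on both axes of the left panel, and Cyp1a1 lies furthest out in the right panel.

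More of these genes were listed for genotype than for palmitate: 35 of the 38 members were listed for genotype in at least 1 treatment and 20 for palmitate in at least 1 genotype. All genes leaned the same way. For genotype, 2894 genes were listed untreated and 4333 with palmitate, and for palmitate 2174 in wild-type and 1316 in knockout cells. The matching share of all genes was not worked out, so the lean is not read as particular to these enzymes. In untreated cells 22 of 26 listed members were called, 10 higher and 12 lower in Ripk3-/- cells. With palmitate 33 of 33 were called, 16 higher and 17 lower. Of all genes tested, 14.5% were called without palmitate, 7.08% higher and 7.42% lower, and 24.2% with it, 12.1% each way (24.6% were listed), and nothing is read from the members' shares for the reason given above. The groups were separate for 22 of 26 and 24 of 33 members, beside 57.0% and 70.5% of all listed genes. The 2 genotype comparisons share no library, and of the 24 members listed in both, 12 were higher in both and 12 lower in both. Being listed in both meant passing the authors' test in each, which favours agreement in direction. The share over all genes listed in both was not worked out, so nothing is read from that agreement. The median log2 fold changes of the listed members were -0.13 and -0.11, beside 0.10 and 0.06 for all listed genes. Listed genes lie on both sides of 0, so the sign of these medians turns on few genes. Of the listed members, 12 were higher and 14 lower untreated, and 16 and 17 with palmitate. With a minimum mean of 10 reads the median of all listed genes with palmitate was -0.04.

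The alcohol dehydrogenases were higher in knockout cells. Adh1, the classical hepatic enzyme of ethanol and retinol oxidation, was at 17, 16.9, 22.8, 12.2 and 17 normalised counts in untreated wild-type and at 54.5, 31.4, 41.1, 35.8 and 39.5 in untreated knockout libraries. With palmitate it was at 28.0, 25.1, 33.3, 16.6 and 23.5 against 54.0, 46.2, 75.4, 87.2 and 60.4. In both treatments every knockout library was higher (log2 fold change 1.23, SE 0.21, adjusted p = 0.00121 by edgeR, and 1.36, SE 0.20, adjusted p = 2.5e-05 by edgeR). Its neighbour Adh7, 27.6 kb away, was at 176, 172, 157, 164 and 148 against 207, 241, 238, 180 and 218 untreated. With palmitate it was at 191, 208, 230, 207 and 162 against 283, 282, 259, 240 and 312. It too was separate in both (0.41, SE 0.10, adjusted p = 0.0103 by edgeR, and 0.46, SE 0.09, adjusted p = 0.000571 by edgeR). Adh5 was higher only with palmitate among the listed results, by 0.10 (edgeR adjusted p = 0.0190), a call lost without knockout palmitate replicate 4 or 5 (adjusted p = 0.0546 and 0.0757).

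The aldehyde dehydrogenases were all listed for both treatments, and they divided. Aldh1b1, a mitochondrial relative of Aldh2 at low level, was at 22.1, 21.4, 27.3, 27.3 and 28.4 in untreated wild-type and at 9.56, 13.6, 8.02, 12.3 and 3.49 in untreated knockout libraries. With palmitate it was at 18.0, 30.9, 20.7, 21.6 and 18.8 against 5.87, 10.7, 6.59, 11.8 and 5.29. The groups were separate each time (log2 fold change -1.41, SE 0.27, adjusted p = 0.00288 by edgeR, and -1.45, SE 0.28, adjusted p = 0.000439 by edgeR). By limma at a pseudocount of 10 the changes were -0.89 and -0.82. Aldh2 itself, at much higher counts, was lower by a smaller margin: 9249 ± 247 against 7980 ± 318 untreated (SD, n = 5; log2 fold change -0.21, edgeR adjusted p = 0.00111) and -0.19 with palmitate (edgeR adjusted p = 5.48e-06). Aldh6a1, Aldh1l1 and Aldh4a1, the last an enzyme of proline breakdown, were also lower in both treatments, with log2 fold changes of -0.41 to -0.14. The Aldh4a1 call without palmitate was lost when any 1 of 8 of the 10 libraries was left out, every one but untreated wild-type replicate 4 and untreated knockout replicate 5 (adjusted p = 0.0524 to 0.114), and 45.0% of its 50-base windows also occur in Gm21969, so its counts are uncertain.

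Aldh3b1 was higher in every knockout library of either treatment, as its counts given above show (log2 fold change 0.42, SE 0.05, adjusted p = 8.84e-05 by edgeR untreated, and 0.38, SE 0.03, adjusted p = 4.34e-08 by edgeR with palmitate). Aldh3a2, the fatty aldehyde dehydrogenase, was higher by 0.19 and 0.28 (edgeR adjusted p = 0.00123 and 2.96e-08), and Aldh16a1, a family member thought to lack catalytic activity in mammals, by 0.18 and 0.16 (edgeR adjusted p = 0.0131 and 0.00723). Aldh9a1 was higher by 0.10 with palmitate (edgeR adjusted p = 0.00416), and untreated it had 0.09 and was not called (edgeR adjusted p = 0.0566).

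**Figure D4:**
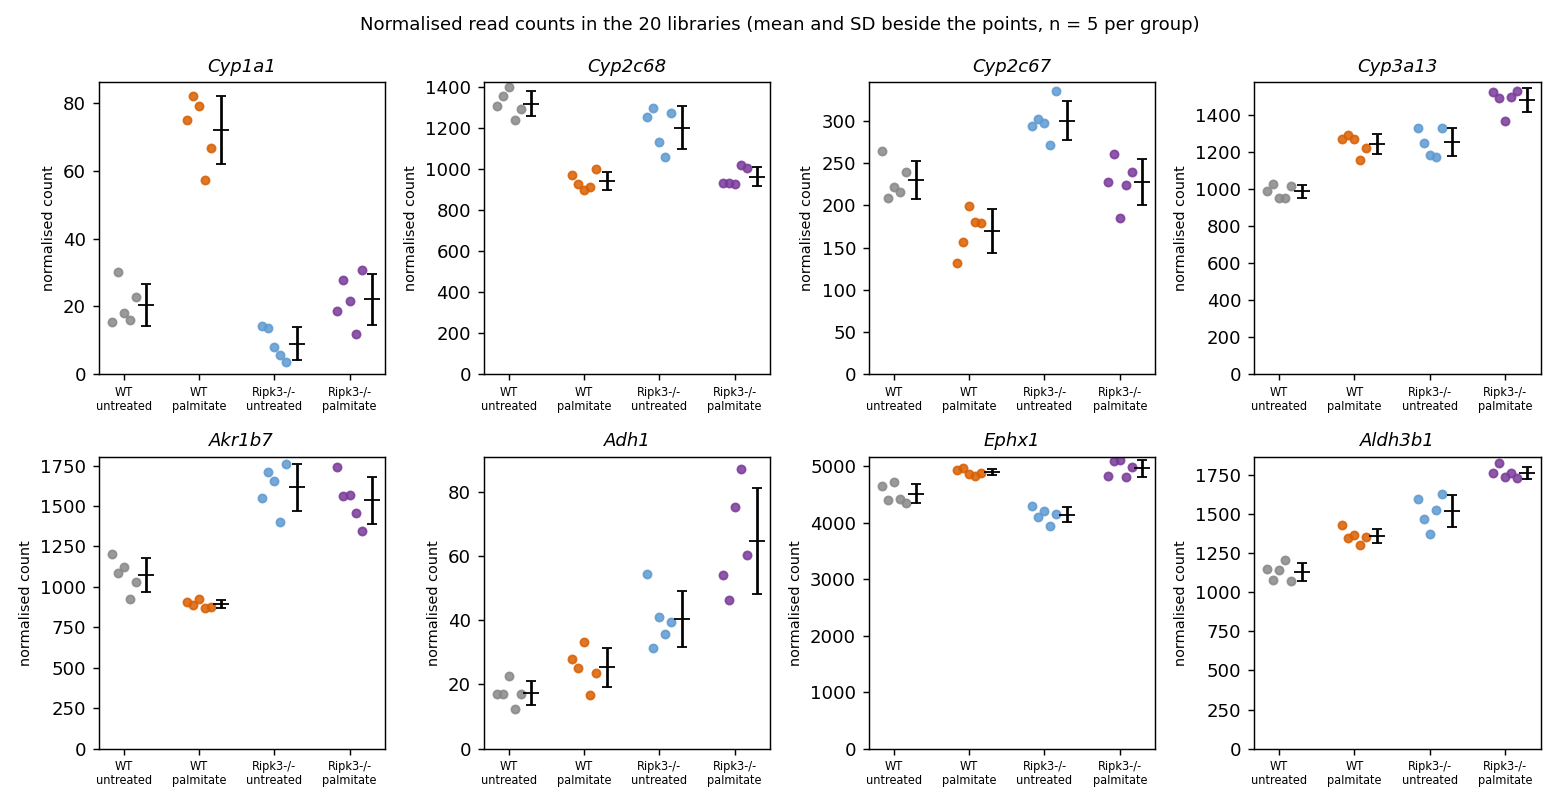
Normalised read counts of 8 genes in each of the 20 libraries, with the mean and SD of each group beside the points (n = 5, linear axes from 0). Cyp1a1 is highest in wild-type palmitate libraries (57.3 to 82.1), the Cyp2c genes are lower with palmitate in both genotypes, and Adh1, Akr1b7 and Aldh3b1 are higher in knockout than in wild-type libraries of the same treatment.

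Among the aldo-keto reductases, Akr1b7 was higher in knockout cells and the listed Akr1c genes were lower. Akr1b7 was at 1546, 1712, 1656, 1401 and 1760 normalised counts in untreated knockout libraries and at 1742, 1559, 1569, 1455 and 1347 with palmitate, each above every wild-type library of that treatment (log2 fold change 0.59, SE 0.07, adjusted p = 0.000127 by edgeR, and 0.78, SE 0.05, adjusted p = 2.41e-09 by edgeR). Akr1c19 was at 1912, 1813, 1748, 1833 and 1840 in untreated and 1827, 1927, 1815, 1929 and 1951 in palmitate-treated wild-type libraries. Its knockout libraries were lower in both treatments (-0.23, SE 0.04, adjusted p = 0.00120 by edgeR, and -0.11, SE 0.03, adjusted p = 0.0134 by edgeR). Akr1c14, a hydroxysteroid dehydrogenase, was lower untreated (-0.38, SE 0.10, adjusted p = 0.0187 by edgeR), a call lost without untreated wild-type replicate 1 or untreated knockout replicate 2 (adjusted p = 0.0576 and 0.0546). Akr1c6, a ketosteroid reductase, was listed with palmitate only, at 6.64 ± 1.32 against 1.15 ± 1.44 (SD, n = 5; -2.47, SE 0.60, adjusted p = 0.00348 by edgeR), and at such counts the fold depends on the method, with -0.57 by limma at a pseudocount of 10.

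Of the P450s, Cyp1a1 was lower in both treatments, and Cyp2c67 and Cyp3a13 were higher. Cyp1a1 in the knockout libraries, listed above, was below all wild-type libraries given that treatment (log2 fold change -1.14, SE 0.34, adjusted p = 0.0337 by edgeR untreated, and -1.68, SE 0.19, adjusted p = 8.13e-07 by edgeR with palmitate). The untreated call was lost without untreated wild-type replicate 2 or 5 or untreated knockout replicate 3, 4 or 5 (adjusted p = 0.0747 to 0.0983), and that change was -0.70 by limma at a pseudocount of 10. Cyp1b1 was lower with palmitate (-0.84, SE 0.22, adjusted p = 0.00587 by edgeR). Ahr was lower in both treatments (-0.35, SE 0.07, adjusted p = 0.0054 by edgeR, and -0.37, SE 0.05, adjusted p = 5.6e-06 by edgeR), the one listed gene of the 5 AHR partners and targets. Nr1i2 was lower too (-0.78, SE 0.16, and -0.41, SE 0.13). Cyp3a13 was higher without overlap in both treatments (0.34, SE 0.05, adjusted p = 0.000283 by edgeR, and 0.25, SE 0.04, adjusted p = 6.7e-05 by edgeR), and Cyp2c67 was higher in both (0.38, SE 0.08, adjusted p = 0.00704 by edgeR, and 0.42, SE 0.11, adjusted p = 0.00566 by edgeR). Cyp2c68 was not listed for genotype. The fit over all libraries put its change at -0.13 (SE 0.05) untreated and 0.03 (SE 0.05) with palmitate. As said above, reads could be split among copies, so the counts of both Cyp2c genes are uncertain. With palmitate, Cyp2d22 and the orphan Cyp20a1 were higher (0.37 and 0.16, edgeR adjusted p = 1.78e-05 and 0.00214) and Cyp27a1, the mitochondrial sterol hydroxylase of bile acid synthesis, was lower (-0.26, edgeR adjusted p = 0.00273). Untreated, Cyp2d22 and Cyp27a1 had 0.21 and -0.23 and were not called (edgeR adjusted p = 0.0606 and 0.0843).

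With palmitate, 4 of the Dhrs reductases were lower in knockout cells and 1 was higher. Dhrs4, a carbonyl and retinal reductase, was lower, with log2 fold changes of -0.38 (SE 0.06, adjusted p = 0.000982 by edgeR) and -0.34 (SE 0.06, adjusted p = 0.000314 by edgeR), and was separate in both treatments. Dhrs1 had log2 fold changes of -0.23 and -0.15 (edgeR adjusted p = 0.00179 and 0.0166), Dhrs7 of -0.26 and -0.22 (edgeR adjusted p = 0.0298 and 0.00347), and Dhrs11, a ketosteroid reductase, of -0.14 with palmitate (edgeR adjusted p = 0.0253). Untreated, Dhrs11 had -0.14 and was not called (edgeR adjusted p = 0.0531), and it was called without untreated knockout replicate 1 (adjusted p = 0.0437). With palmitate the Dhrs1 call was lost without knockout replicate 1 or 3 or wild-type replicate 3 (adjusted p = 0.0507 to 0.0579) and the Dhrs11 call without knockout replicate 3 or 5 or wild-type replicate 1 (0.0746 to 0.0874). The untreated Dhrs7 call was lost without wild-type replicate 3 or 4 or knockout replicate 2, 3 or 4 (0.0626 to 0.0843). Dhrs7b was higher (0.22 and 0.18, edgeR adjusted p = 0.00915 and 0.00367).

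Position on the chromosome goes with direction for some of these genes. Dhrs1 lies 39.3 kb and Dhrs4 295 kb from Ripk3 on chromosome 14. Of the genes listed within 500 kb of Ripk3, leaving out Ripk3, Dhrs1 and Dhrs4, 11 of 11 were lower in untreated knockout cells and 13 of 14 with palmitate. On the whole of chromosome 14, 92.7% and 88.1% of listed genes were lower in knockout cells, and on chromosome 9, which carries Cyp1a1, 86.5% and 82.9%, beside 49.4% and 49.9% of all listed genes. Ephx2, also on chromosome 14, was nevertheless higher with palmitate (0.13, SE 0.04, adjusted p = 0.0215 by edgeR), a call lost without knockout replicate 3 or wild-type replicate 5 (adjusted p = 0.0684 and 0.0759). With the members on chromosomes 9 and 14 left out, 19 were called untreated, 10 higher and 9 lower, and 29 with palmitate, 15 higher and 14 lower. The part of chromosome position in the results of single genes was not tested.

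The carboxylesterases, which cleave ester drugs and acylglycerols, were higher in knockout cells. Ces2g was at 55.3, 46.3, 43.7, 48.9 and 66.3 in untreated wild-type and at 95.6, 108, 98.2, 66.0 and 68.5 in untreated knockout libraries, and the groups overlapped slightly (log2 fold change 0.75, SE 0.17, adjusted p = 0.00875 by edgeR). With palmitate it was at 50.9, 56.0, 56.7, 71.4 and 58.6 against 114, 115, 119, 94.2 and 98.5, with no overlap (0.87, SE 0.12, adjusted p = 1.15e-05 by edgeR). Ces2f, 1.67 kb away, was higher with palmitate from a low level, 3.04 ± 2.34 against 10.2 ± 5.02 (SD, n = 5; 1.71, SE 0.48, adjusted p = 0.0112 by edgeR, and 0.60 by limma at a pseudocount of 10).

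Oxygenases and reductases of low level were lower in knockout cells with palmitate. Fmo1, a flavin monooxygenase of drug amines and sulfides, was at 7.99, 6.76, 18.9, 7.47 and 10.6 in wild-type and at 4.70, 4.29, 4.71, 2.36 and 0 in knockout libraries (log2 fold change -1.64, SE 0.48, adjusted p = 0.0137 by edgeR). The groups were separate, but the call was lost without wild-type palmitate replicate 3 (adjusted p = 0.0666), and the change was -0.60 by limma at a pseudocount of 10. Fmo5 was at 87.4 ± 12.2 against 64.9 ± 12.1 (SD, n = 5; -0.42, SE 0.14, adjusted p = 0.0317 by edgeR), a call lost without any 1 of 6 libraries, replicates 1, 2 and 3 of the knockout and 1, 2 and 5 of the wild type (adjusted p = 0.0567 to 0.0976). Nqo1, the quinone reductase best known as an NRF2 target, was at 8.05 ± 3.43 against 2.60 ± 1.83 (SD, n = 5; -1.63, SE 0.48, adjusted p = 0.0158 by edgeR, and -0.50 by limma at a pseudocount of 10). Ephx1 was lower in untreated knockout cells, with every library below every wild-type one, which ran 4653, 4409, 4721, 4424 and 4350 (-0.12, SE 0.04, adjusted p = 0.0283 by edgeR). That call was lost without untreated wild-type replicate 1 or 3 or untreated knockout replicate 2 or 4 (adjusted p = 0.0688 to 0.0857), and Ephx1 was not listed for genotype with palmitate.

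Regulators and partners outside the enzyme families set these values in context. Of 16 NRF2 regulators and targets, 10 were listed for palmitate in wild-type cells and 9 rose, among them the cystine transporter Slc7a11 (log2 fold change 2.30, SE 0.09) and haem oxygenase Hmox1 (0.43, SE 0.04). In knockout cells 5 of 7 listed rose and 0 fell. For genotype with palmitate, 2 were higher and 8 lower, and without it 2 higher and 3 lower. The lower genes include Tkt on chromosome 14, Keap1 on chromosome 9 and, with palmitate, Gclc on chromosome 9. Most listed genes of these chromosomes were lower, though Me1 on chromosome 9 was higher. The part of chromosome position was not tested. The list mixes regulators such as Keap1 with targets, so these counts are not read as NRF2 activity. Of 9 xenobiotic and bile acid receptors, the bile acid receptor gene Nr1h4 was called lower in all 4 comparisons (-0.11 to -0.25), and Ppara was lower with palmitate in wild-type cells (-0.24, SE 0.07). The genotype comparison with palmitate went both ways, with 2 receptor genes called up and 2 down. Ripk3-/- cells given palmitate had more Ppara (0.22, SE 0.06) and Hnf4a (0.10, SE 0.03) than wild-type cells, and less Nr1h4 and Nr1i2. The median log2 fold change of the listed NRF2 genes was 0.17 for palmitate in wild-type cells, beside 0.12 for all listed genes, and 0.15 in knockout cells, beside 0.16. For genotype it was -0.12 in both treatments, beside 0.10 untreated and 0.06 with palmitate. In the authors' deposited table for KEGG, drug metabolism by cytochrome P450 had 15 genes higher and 3 lower for palmitate in wild-type cells (adjusted p = 0.0396) and 13 and 2 in knockout cells (adjusted p = 0.0047). For genotype the authors' deposited table gives 5 higher and 19 lower untreated (adjusted p = 0.0359) and 10 and 22 with palmitate (adjusted p = 0.0122). Of those term genes only 3, 3, 3 and 6 are among the 38 members, so the authors' deposited table mostly counts other genes there. Related terms did not all reach an adjusted p under 0.05 in each comparison. In the authors' deposited table, metabolism of xenobiotics by cytochrome P450 had adjusted p = 0.0382, 0.0387, 0.0239 and 0.0717 in the same order. Retinol metabolism had 0.16, 0.0635, 0.485 and 0.909 there.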

How the data were processed

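Per the submitters' processing notes, the tools were FastQC 0.11.9, HISAT2, featureCounts 1.5.0-p3 and DESeq2, with build mm10. Other versions, the annotation and strandedness: not given in the sources used here. Per the file headers, each of the authors' 4 tables gives raw read counts, normalised counts (a signal, equal to reads over a library's size factor), the log2 fold change, FPKM, p-value, adjusted p-value and gene length. Listing required the authors' adjusted p-value to be under 0.05, and listed genes held 15.8% to 47.9% of a library's reads. The authors also deposited KEGG terms with p-values and gene counts, which were only described. Groups came from the sample titles and labels.

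The number of genes tested was worked out from the deposited p-values (13764, 12871, 16106 and 17611 for palmitate in wild-type and knockout cells and genotype without and with palmitate). Counts were tested with edgeR 4.0.16 (R 4.3.3), quasi-likelihood, with the authors' size factors, no replicate block and Benjamini-Hochberg adjustment over those numbers. Dispersions come from listed genes only. Levels across tables use 1 joint factor per library. Of the 38 members, 27 have counts in all 20 libraries. DESeq2 1.42.0, limma 3.58.1 (pseudocounts 1 and 10), other scalings, a minimum of 10 reads, a replicate block and leaving out each library were alternatives. The scripts were tested on simulated data.

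Every library is given for up to 6 called, non-overlapping members per comparison with the largest changes and a mean normalised count of at least 10 in either group (Fmo1 met this through its higher group), and for members listed in all 4 tables. Members and lists were chosen with earlier results of these data known. Promoters came from RefSeq (GRCm38.p6), where 34 of 38 members matched by symbol, and transcripts from GENCODE vM21, where 38 identifiers matched, 36 with identical coordinates.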

Additional observations from a re-analysis of the deposited data

Results flagged for a closer look

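Over 14 genes, 54 groups of 5 libraries were checked for a library far from the others, and 2 passed Dixon's 95% critical value of 0.71; chance flags about 1 in 20 groups. Aldh1b1 in wild-type palmitate replicate 2 had a normalised count of 30.9, while the other libraries of the group ran from 18.0 to 21.6. Cyp3a13 in knockout palmitate replicate 3 had 1366, while the others ran from 1490 to 1526.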

How the results depend on the processing

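The count of members called stayed within 1.5 times its value under every alternative run but 1: when DESeq2 size factors were taken from the listed genes, 3 members were called for palmitate in knockout cells instead of 8. Those factors centre the listed genes, most of which were higher, by construction. No member changed direction in a called result. On leaving out each library in turn, the calls ranged from 13 to 16 for palmitate in wild-type cells, 7 to 9 in knockout cells, 18 to 22 for genotype untreated, 29 to 33 for genotype with palmitate, and 0 to 0 for the interaction. Members called under every alternative numbered 9 of 16, 2 of 8, 17 of 22 and 27 of 33 in the same order. In knockout cells those 2 were Cyp2c68 and Ephx1. With the replicate block the counts were 17, 8, 21 and 33 and 0 for the interaction. By DESeq2 they were 18, 10, 25 and 33. Same-numbered libraries correlated above 0.1 in 3, 4, 1 and 1 of 5 pairs, which is most pairs in the palmitate comparisons. No source states a paired design, so shared numbers were not taken as a pairing, and whether they mark a batch was not tested. Folds of genes with few reads depend most on the method, and 4 of the 33 members listed for genotype with palmitate have a mean under 10 reads. Genes outside the tables were not analysed here, so no statement covers unlisted enzymes.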
